A study of Mus musculus with 6 samples.

Results

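The genes described here are the mouse protein-coding genes whose symbols begin with Ift or Bbs and a number, or take the form Ttc with a number and at most 1 letter, together with Traf3ip1. They number 63 of the 54532 genes in each expression file, 21995 of which are protein-coding: 14 Ift, 8 Bbs and 40 Ttc genes and Traf3ip1. The rule uses symbols and no expression value, and all 63 lie on autosomes.

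Intraflagellar transport (IFT) moves building blocks along the microtubules of cilia and of the growing sperm tail. Trains made of 2 subcomplexes, IFT-A and IFT-B, are carried outwards by kinesin-2 and back by dynein-2, and the BBSome, the complex disrupted in Bardet-Biedl syndrome, rides on them as a membrane-cargo adaptor. The Ttc symbols mark tetratricopeptide repeat genes, a protein fold and not a pathway: some encode IFT, BBSome or axonemal proteins, and many have no ciliary role. Male germ cells switch on most flagellar genes in meiosis, before the tail is built.

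RNA-seq was done on pachytene cells, the meiotic prophase spermatocytes in which chromosomes are fully paired, purified from testis by STA-PUT sedimentation in mice at about postnatal day 80. KO cells lacked MAPS, the product of 1700102P08Rik. EE_KO cells were labelled as overexpressing MAPS on that knockout background and titled EE-KO, and WT cells were wild type. Each group had 2 libraries from 3 mice of 1 genotype, prepared in 2 independent experiments, and the study asked about sex chromosome silencing. The strain, what drives MAPS in EE_KO cells and whether mice were pooled per library are not stated in the labels.

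Levels are FPKM, fragments scaled for exon length and library size, and changes are differences in mean log2(FPKM + 1), tested with limma over 15368 genes and called at a Benjamini-Hochberg adjusted p below 0.05. The pseudocount of 1 makes changes of low genes smaller than their ratios. The libraries held 14178387 to 16565238 reads on genes, and a member's value rested on 2 to 19848 reads, the lowest in Ttc22 and Ttc24; the counting error of so few reads is large. The MAPS gene read 7.97 and 10.1 FPKM in KO libraries, 109 and 82.2 FPKM in EE_KO libraries and 157 and 150.2 FPKM in WT libraries. Both EE_KO libraries were below both WT libraries, at 62.1% of the WT mean (log2 change -0.70 ± 0.16 (SE), adjusted p = 0.254), so the gene's level exceeded KO and was not above WT.

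Marker genes in the KO libraries went against the labelled cell type. The summed level of 12 mid to late pachytene markers was 306 and 369 FPKM in KO libraries, 7333 and 7855 FPKM in EE_KO libraries and 8372 and 7714 FPKM in WT libraries, and all 12 fell in KO. For 12 round and elongating spermatid markers the sums were 22.5 and 23.2 FPKM in KO, 2377 and 3437 FPKM in EE_KO, and 1943 and 3691 FPKM in WT. The 15 Sertoli markers summed to 4039 and 3811 FPKM in KO, 460 and 254 FPKM in EE_KO, and 288 and 281 FPKM in WT, and the 12 Leydig markers to 2473 and 2353 FPKM, 209.5 and 109.5 FPKM, and 83.0 and 138 FPKM in the same groups. All 15 and all 12 rose in KO, and no marker of these 4 lists was at 0 in any library. The 11 spermatogonia markers summed to 205 and 248 FPKM in KO, 40.0 and 36.6 FPKM in EE_KO, and 35.9 and 38.3 FPKM in WT, with 8 rises and 1 fall among 9 tested. In bulk RNA, fewer cells of a type and less RNA per cell cannot be told apart, and the part of this cell makeup in the results below was not tested.

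Most members fell in KO against WT. Of the 59 tested, 44 fell and 10 rose, and 5 were not called. Over all genes tested, 48.1% fell, 38.0% rose and 86.2% were called in either direction, so a call as such was no mark of the members. That balance depended on the scale: 7399 genes fell and 5842 rose as deposited, against 6408 and 6827 on TPM (values scaled to 1 total in every library) and 6407 and 6664 after quantile normalization, while members fell and rose in 41 and 12 cases on TPM and 42 and 12 after quantile normalization. The median log2 change was -1.83 over members, against -0.29 over all genes tested and 0.02 over the 12172 protein-coding ones. All 14 Ift genes had lower means in KO and 13 were called (median log2 change -2.33), and all 7 tested Bbs genes fell (median -1.33). The 37 tested Ttc genes went both ways, with 23 falls and 10 rises (median -1.08). The order of the families depended on the filter. At a mean of at least 5 FPKM the Ttc median was -2.76 over 23 genes, larger in size than the Ift median of -2.33. At that filter 2 of 44 tested members rose, and with no filter 11 of 63 rose and 45 fell. The filters use the mean over all 6 libraries, in which EE_KO and WT libraries outnumber KO libraries. Genes high in EE_KO and WT therefore pass more readily than genes high only in KO. The family order and the balance of falls and rises depend in part on this, and no order is concluded. KO and WT libraries did not overlap in 57 of 59 members and in 93.4% of all genes. An exact rank test of a single gene, which was not run, cannot go below a two-sided p of 0.333 with 2 KO and 2 WT libraries. The limma calls rest instead on an assumed normal spread, taken from all 6 libraries and shared over all genes. They measure only the spread between these libraries.

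**Figure D1:**
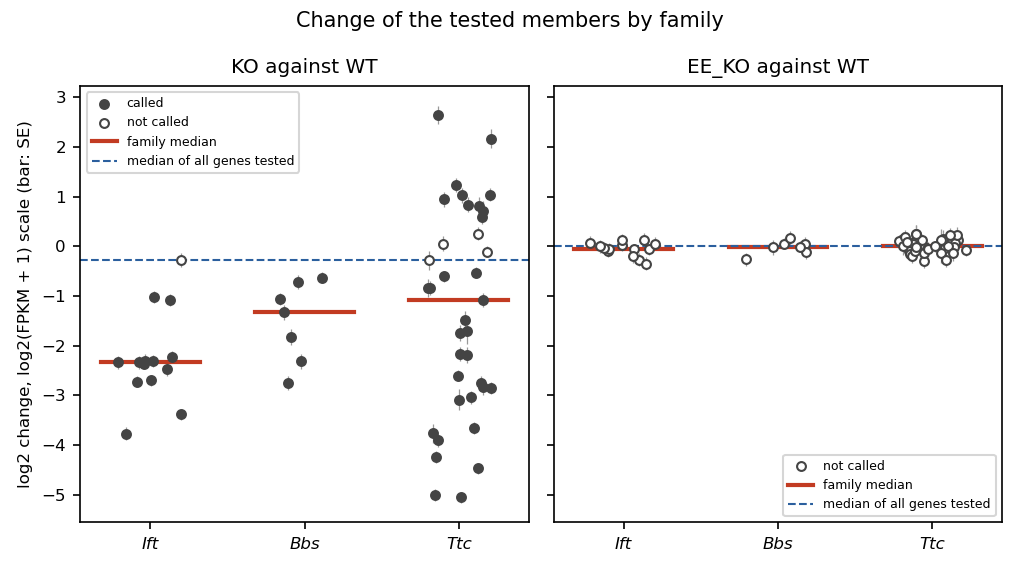
Log2 change on the log2(FPKM + 1) scale, with its SE, of each tested Ift, Bbs and Ttc gene in KO against WT (left) and EE_KO against WT (right); filled points were called, red lines are family medians and the dashed line is the median of all genes tested. On the left the family medians lie at -2.33, -1.33 and -1.08, and on the right no point is called; Traf3ip1 is not drawn.

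The IFT-A subunits, which serve return transport and the entry of membrane proteins, all fell. Ift140 (chr17:25016085-25099495, plus strand in GRCm38), a core IFT-A subunit, was the highest of the Ift genes in WT. It read 13.5 and 14.7 FPKM in KO libraries, 158 and 159 FPKM in EE_KO libraries and 167 and 146 FPKM in WT libraries. The KO libraries lay an order of magnitude below the other 4, which overlapped each other (KO against WT, log2 change -3.38 ± 0.11 (SE), adjusted p = 1.11e-07). Ift122, another core subunit, read 7.31 and 7.55 FPKM in KO, 51.2 and 51.6 FPKM in EE_KO and 58.3 and 49.3 FPKM in WT, 13.8% of the WT mean in KO (log2 change -2.70). Ttc21b, which encodes the IFT139 subunit, stood at 4.04 and 4.18 FPKM in KO, 30.6 and 36.3 FPKM in EE_KO and 36.5 and 34.96 FPKM in WT. Ift43, a small peripheral subunit, read 13.1 and 10.3 FPKM in KO, 46.2 and 44.6 FPKM in EE_KO and 56.9 and 59.5 FPKM in WT, so that the 3 groups were separate. With Wdr35 and Wdr19, which lie outside the symbol rule, all 6 IFT-A genes fell (median log2 change -2.70). Wdr19 fell least, to 5.83 and 4.59 FPKM in KO against 10.4 and 9.34 FPKM in WT.

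The IFT-B2 subunits, the peripheral part of the outbound train, held both extremes of the Ift family. Ift172 (chr5:31253277-31291116, minus strand), the largest IFT protein, fell most of the Ift genes, to 7.63 and 9.22 FPKM in KO libraries, against 117 and 121 FPKM in EE_KO and 136 and 118 FPKM in WT libraries (log2 change -3.77 ± 0.12 (SE), adjusted p = 1.14e-07). Its KO mean was 6.63% of the WT mean. Ift20 (chr11:78536361-78541737, plus strand), which also serves vesicle traffic from the Golgi, read 29.6 and 31.8 FPKM in KO, 34.9 and 44.6 FPKM in EE_KO and 39.2 and 35.8 FPKM in WT. The KO values were the lowest but close to the rest, at 81.9% of WT, and Ift20 was not called (log2 change -0.28 ± 0.14 (SE), adjusted p = 0.0876); its change was 0.32 and called under quantile normalization (adjusted p = 0.0425). It was the highest Ift gene in both KO libraries, whereas Ift140 was the highest in the other 4. Ift57 read 3.66 and 4.12 FPKM in KO against 22.9 and 24.3 FPKM in WT, and Ift80 read 3.09 and 2.996 FPKM in KO against 20.1 and 18.1 FPKM in WT. Traf3ip1, which encodes the microtubule-binding subunit IFT54, read 4.004 and 5.21 FPKM in KO, 25.96 and 24.6 FPKM in EE_KO and 27.00 and 25.8 FPKM in WT (log2 change -2.30 ± 0.13 (SE), adjusted p = 1.61e-06). These 3 genes changed by similar amounts, with log2 changes between -2.33 and -2.30. With Cluap1, outside the rule, 5 of the 6 genes fell (median -2.30).

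The IFT-B1 core fell with 1 exception. Ift74 and Ift81, whose proteins pair to bind tubulin, fell to 16.99% and 16.6% of their WT means. Ift74 read 13.8 and 14.5 FPKM in KO, 81.6 and 101 FPKM in EE_KO and 89.2 and 77.1 FPKM in WT. Ift81 read 3.86 and 4.44 FPKM in KO, 22.9 and 26.9 FPKM in EE_KO and 24.3 and 25.6 FPKM in WT. The small GTPase-like subunits also fell. Ift22 read 6.03 and 5.93 FPKM in KO against 48.3 and 42.2 FPKM in WT (log2 change -2.72 ± 0.11 (SE), adjusted p = 2.84e-07), and Ift27, which links the train to the BBSome, read 2.39 and 2.95 FPKM in KO against 17.5 and 16.5 FPKM in WT (log2 change -2.30 ± 0.13 (SE), adjusted p = 1.37e-06). Ift46, a carrier of outer dynein arms in Chlamydomonas, read 5.08 and 5.38 FPKM in KO against 32.2 and 29.9 FPKM in WT, and Ttc26, the IFT56 subunit, 3.45 and 2.54 FPKM in KO against 18.04 and 16.3 FPKM in WT.

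Ift88 and Ift52 are central scaffolds of IFT-B1. Ift88 read 9.53 and 10.3 FPKM in KO, 22.7 and 25.7 FPKM in EE_KO and 21.8 and 22.5 FPKM in WT, a KO mean 44.9% of WT (log2 change -1.08 ± 0.12, SE). Ift52 read 12.95 and 14.3 FPKM in KO, 26.3 and 29.3 FPKM in EE_KO and 30.5 and 26.8 FPKM in WT, a KO mean 47.5% of WT (log2 change -1.02 ± 0.12, SE). Both were called, and KO libraries lay below all others. Ttc30b, 1 of 3 mouse genes for the IFT70 subunit, was not called, at 3.60 and 2.36 FPKM in KO, 3.02 and 3.64 FPKM in EE_KO and 3.47 and 4.08 FPKM in WT, with overlapping groups (log2 change -0.28 ± 0.19 (SE), adjusted p = 0.205). Its neighbour Ttc30a2, outside the rule, read 1.40 and 2.34 FPKM in KO, 90.99 and 92.98 FPKM in EE_KO and 120.2 and 91.6 FPKM in WT (log2 change -5.23 ± 0.19 (SE), adjusted p = 1.54e-07). Of the 50-base words of Ttc30b exons, 34.8% also occur in other genes, 30.1% in Ttc30a2, so reads may be split among these copies and their values are uncertain. In all, 11 of 12 IFT-B1 genes fell (median -2.32).

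**Figure D2:**
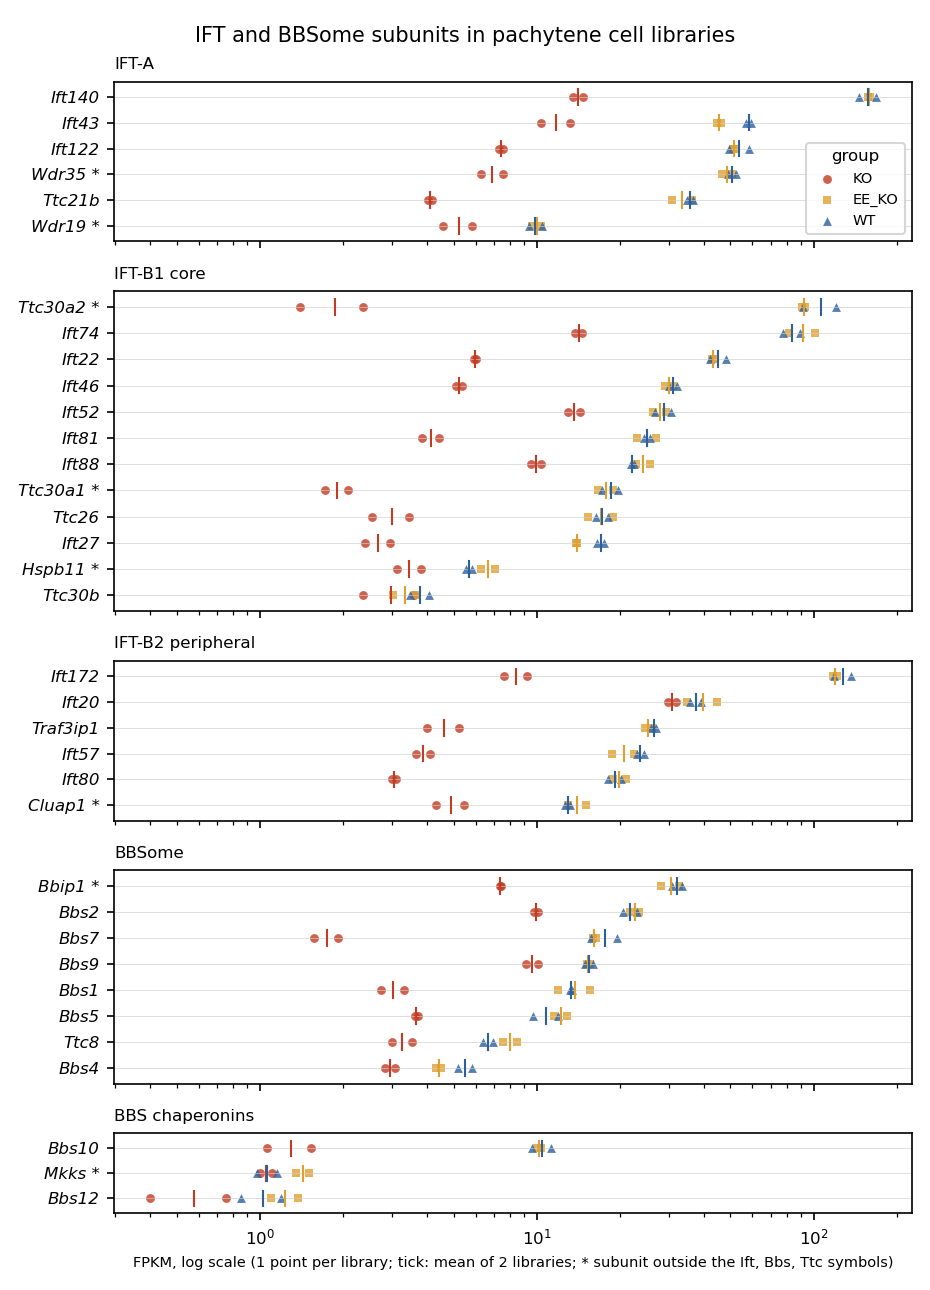
FPKM on a log axis of IFT-A, IFT-B1, IFT-B2, BBSome and chaperonin genes, 1 point per library and a tick at each group mean, with genes outside the symbol rule starred. KO points of Ift172 (7.63 and 9.22 FPKM) lie far left of the EE_KO and WT points, those of Ift20 (29.6 and 31.8 FPKM) do not.

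All 8 BBSome genes fell, with a median log2 change of -1.19, set beside -2.32 over the 24 genes of IFT-A, IFT-B1 and IFT-B2; the difference between the medians was not tested. Bbs7, which encodes a beta-propeller subunit, fell most, to 1.57 and 1.91 FPKM in KO libraries, against 15.9 and 16.4 FPKM in EE_KO and 19.5 and 15.6 FPKM in WT libraries (log2 change -2.75 ± 0.15 (SE), adjusted p = 1.05e-06). Bbs1, whose protein binds the GTPase Arl6 to bring the complex to membranes, read 3.32 and 2.74 FPKM in KO, 11.9 and 15.6 FPKM in EE_KO and 13.2 and 13.4 FPKM in WT (log2 change -1.83 ± 0.16 (SE), adjusted p = 1.17e-05). KO libraries of both genes lay below all others. Bbs5, the lipid-binding subunit, read 3.71 and 3.63 FPKM in KO, 11.5 and 12.8 FPKM in EE_KO and 9.67 and 11.9 FPKM in WT, a KO mean 33.9% of WT. Bbs2, which mice need for sperm flagella, read 9.75 and 10.1 FPKM in KO, 21.6 and 23.4 FPKM in EE_KO and 20.5 and 23.01 FPKM in WT, a KO mean 45.6% of WT. Ttc8, the BBS8 subunit, stood at 48.96% of WT, with 3.53 and 2.998 FPKM in KO, 7.51 and 8.48 FPKM in EE_KO and 6.40 and 6.94 FPKM in WT.

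Bbs4 and Bbs9 fell least of the BBSome genes. Bbs4, a tetratricopeptide subunit that mice also need for sperm flagella, read 3.06 and 2.82 FPKM in KO, 4.31 and 4.51 FPKM in EE_KO and 5.83 and 5.20 FPKM in WT (log2 change -0.72 ± 0.14 (SE), adjusted p = 0.00138). Its 3 groups were separate, with EE_KO between KO and WT. Bbs9, the scaffold of the complex, read 10.1 and 9.13 FPKM in KO, 15.1 and 15.5 FPKM in EE_KO and 15.9 and 14.95 FPKM in WT (log2 change -0.63 ± 0.11 (SE), adjusted p = 0.000982); on TPM its change was -0.24 and no longer called (adjusted p = 0.0675). Of the chaperonin-like genes that assemble the BBSome, Bbs10 fell to 1.06 and 1.53 FPKM in KO, against 9.99 and 10.4 FPKM in EE_KO and 11.2 and 9.60 FPKM in WT (log2 change -2.32 ± 0.16 (SE), adjusted p = 3.24e-06). Bbs12 had a mean under 1 FPKM and was not tested, at 0.754 and 0.402 FPKM in KO, 1.09 and 1.37 FPKM in EE_KO and 0.850 and 1.19 FPKM in WT. Mkks, the remaining chaperonin, was not called (log2 change -0.01, adjusted p = 0.973). The recruitment genes Arl6 and Lztfl1 both fell (log2 changes -1.44 and -1.46).

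The 4 Ttc genes of the axoneme and sperm flagellum all fell. Ttc29 (chr8:78213297-78394326, plus strand), an axonemal gene needed for sperm motility, read 1.29 and 1.19 FPKM in KO libraries, 67.8 and 73.1 FPKM in EE_KO libraries and 75.4 and 70.6 FPKM in WT libraries. KO was 1.70% of WT, the lowest share of any member (log2 change -5.05 ± 0.11 (SE), adjusted p = 5.37e-08). Ttc25, part of the docking complex of outer dynein arms, read 0.996 and 1.13 FPKM in KO, 39.98 and 39.9 FPKM in EE_KO and 46.1 and 42.9 FPKM in WT (log2 change -4.46 ± 0.11 (SE), adjusted p = 5.83e-08). Ttc21a, a relative of Ttc21b with a role in sperm flagella, read 1.39 and 1.70 FPKM in KO, 44.4 and 48.3 FPKM in EE_KO and 44.7 and 49.2 FPKM in WT (log2 change -4.24 ± 0.12 (SE), adjusted p = 7.32e-08). Ttc12, which acts in the assembly of dynein arms, fell less, to 5.71 and 5.93 FPKM in KO, against 39.7 and 41.4 FPKM in EE_KO and 43.1 and 37.9 FPKM in WT (log2 change -2.60 ± 0.11 (SE), adjusted p = 3.58e-07). In each of these 4 genes the KO libraries lay below all others. The 8 Ttc genes of the IFT train, the BBSome or the axoneme had a median log2 change of -2.73 with 7 falls. The other 29 tested had a median of -0.60, with 16 falls and 10 rises. Their shares of 55.2% and 34.5% lay near the 48.1% and 38.0% of all genes tested. The lists were made with earlier results of these data known, and the difference between the 2 medians was not tested.

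The 5 largest falls among those other Ttc genes reached the size of the axonemal ones. Ttc39d read 1.58 and 1.87 FPKM in KO, 81.2 and 91.5 FPKM in EE_KO and 88.04 and 84.5 FPKM in WT (log2 change -5.01 ± 0.12 (SE), adjusted p = 5.37e-08). Ttc6 read 0.725 and 0.853 FPKM in KO, 23.8 and 27.6 FPKM in EE_KO and 26.3 and 25.2 FPKM in WT (log2 change -3.90 ± 0.13 (SE), adjusted p = 1.11e-07). In both, the KO libraries stood apart and the EE_KO and WT libraries overlapped. Ttc16, Ttc23l and Ttc39a had KO means of 4.50%, 3.39% and 4.38% of WT, with log2 changes of -3.65, -3.76 and -3.09. Ttc39a read 0.590 and 0.505 FPKM in KO and 9.39 and 15.6 FPKM in WT, the WT libraries being uneven.

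The 10 rises were all in the Ttc family. Ttc7b (chr12:100300770-100520826, minus strand), which encodes a scaffold of the lipid kinase PI4KA at the plasma membrane, read 10.8 and 9.70 FPKM in KO libraries, 1.46 and 0.831 FPKM in EE_KO libraries and 0.800 and 0.794 FPKM in WT libraries. The KO mean was 12.8 times the WT mean (log2 change 2.64 ± 0.18 (SE), adjusted p = 3.43e-06), and 7.95% of its exon length overlaps Gm10432 on the opposite strand. Ttc13 read 11.3 and 9.41 FPKM in KO, 2.22 and 1.32 FPKM in EE_KO and 1.51 and 1.55 FPKM in WT (log2 change 2.16 ± 0.19 (SE), adjusted p = 1.39e-05). In both genes the first EE_KO library was above the second, as were its summed Sertoli and Leydig markers given above. Ttc7, Ttc9c, Ttc19 and Ttc38, named after their values were seen, also rose in KO, with the first EE_KO library below the second. In the remaining rises, Ttc3, Ttc14, Ttc17 and Ttc33, the first EE_KO library was above the second, though barely in Ttc14 (3.793 and 3.787 FPKM). Ttc33, likewise named after its values were seen, read 3.06 and 2.59 FPKM in EE_KO. A link between the rises and those markers was not tested. Ttc3, a ubiquitin ligase gene, read 7.09 and 6.64 FPKM in KO, 2.88 and 2.78 FPKM in EE_KO and 2.28 and 2.44 FPKM in WT (log2 change 1.23 ± 0.14 (SE), adjusted p = 5.41e-05). Ttc14 and Ttc17 had KO means 234% and 287% of WT (log2 changes 1.04 and 1.03), and 11.9% of the Ttc14 exon length overlaps Ccdc39 on the opposite strand. Besides Ttc30b, the Ttc genes not called were Ttc27, Ttc37 and Ttc5, with log2 changes of -0.11, 0.05 and 0.25; on TPM, Ttc27 changed by 0.31 and was called (adjusted p = 0.0359). These 3 were named after their values were seen. Ttc22, Ttc32 and Ttc9b had means under 1 FPKM and were not tested. Ttc9b was higher in both KO libraries, at 0.759 and 1.15 FPKM in KO against 0.278 and 0.225 FPKM in WT. Ttc32 read 0.951 and 0.519 FPKM in KO against 0.441 and 0.376 FPKM in WT. Ttc22 was lower, at 0.117 and 0.104 FPKM in KO against 0.237 and 0.239 FPKM in WT.

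**Figure D3:**
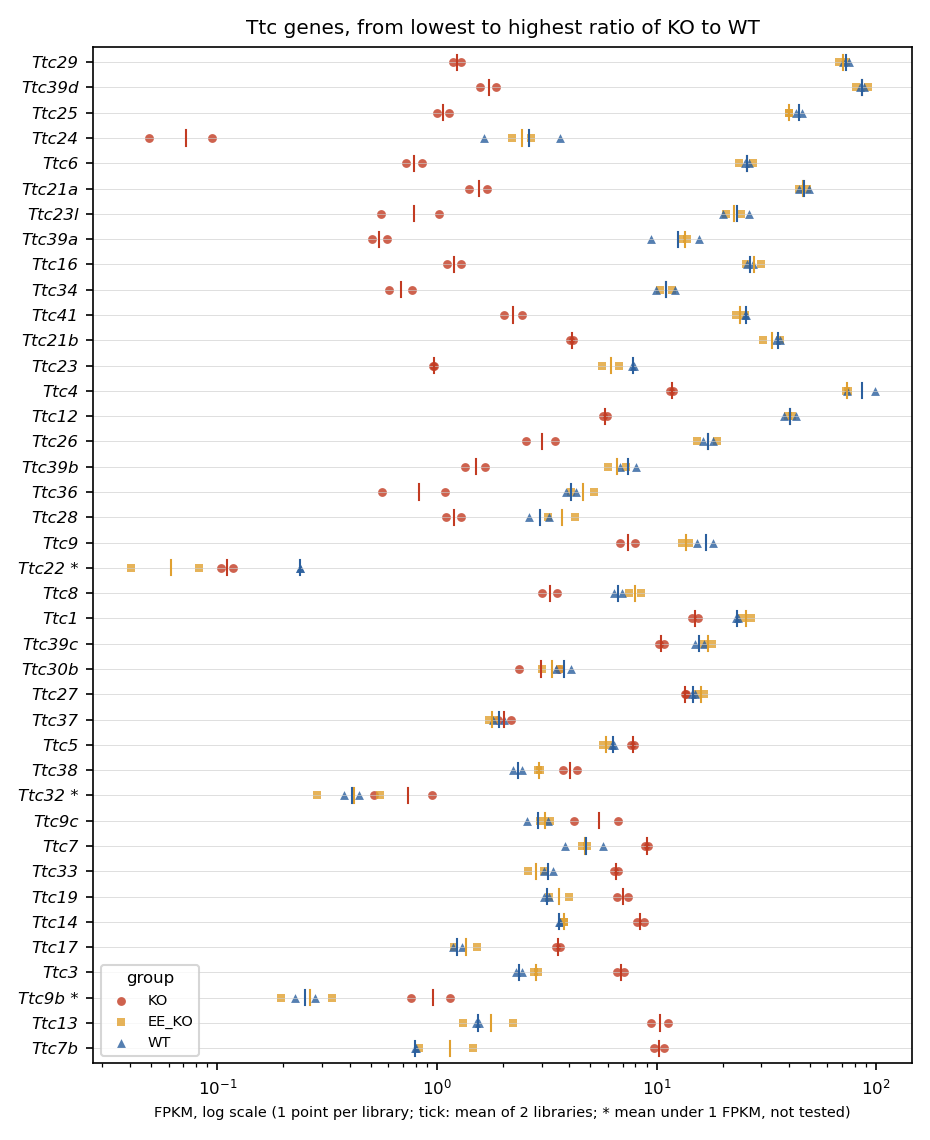
FPKM on a log axis of the 40 Ttc genes, ordered by the ratio of KO to WT, 1 point per library with a tick at each group mean; starred genes were not tested. KO points lie left of the others from Ttc29 (1.29 and 1.19 FPKM in KO) and right of them at the foot, where Ttc7b read 10.8 and 9.70 FPKM in KO against 0.800 and 0.794 FPKM in WT.

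In EE_KO against KO, which shares its KO libraries with the comparison above, 45 of 59 members rose and 11 fell. The background was 47.8% risen, 37.8% fallen and 85.6% called over all genes tested. Libraries did not overlap in 58 of 59 members, against 93.6% of all genes, and the median log2 change was 1.87 over members and 0.26 over all genes. All 14 Ift genes (median 2.32), all 7 tested Bbs genes (median 1.495) and 23 of 37 Ttc genes (median 1.10) rose, and 11 Ttc genes fell. The Bbs4 call was lost on TPM, at a log2 change of 0.17 (adjusted p = 0.313). Ift172 rose, with a log2 change of 3.68 ± 0.12 (SE), adjusted p = 1.36e-07, and Bbs7 with a log2 change of 2.65 ± 0.15 (SE), adjusted p = 1.4e-06. Ift20 was called here (log2 change 0.35 ± 0.14 (SE), adjusted p = 0.0406), but its change was -0.042 on TPM and -0.17 after quantile normalization, and was not called there. Without the second EE_KO library it was 0.18 (adjusted p = 0.279).

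In EE_KO against WT no member was called, and 7 of the 15368 genes, 0.0455%, were. At an unadjusted p below 0.05, 1 member passed, against 7.48% of all genes, and the EE_KO and WT libraries did not overlap in 20 of 59 members, against 36.5% of all genes. EE_KO means ran from 78.0% of WT in Ift43 to 144% in Ttc7b, with a median of 99.3%. The member that passed was Ift43, with 46.2 and 44.6 FPKM in EE_KO and 56.9 and 59.5 FPKM in WT (log2 change -0.35 ± 0.13 (SE), unadjusted p = 0.0272, adjusted p = 0.573). Next to it in size among the Ift genes, Ift27 read 13.8 and 14.00 FPKM in EE_KO and 17.5 and 16.5 FPKM in WT (log2 change -0.27 ± 0.13, SE). In Ttc7b the change was 0.24 ± 0.18 (SE). A p that misses the threshold does not show that EE_KO and WT were alike: the SE of a member's change ran from 0.11 to 0.26.

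The scale of the values bears on the smaller changes. KO libraries had lower FPKM sums, and the median log2 change of all genes in KO against WT was -0.29 as deposited, 0.09 on TPM and 0.03 after quantile normalization. Relative to those medians the Ift median stood lower by a similar margin on each scale, at -2.33, -2.10 and -2.10. Directions of the 13 called Ift genes and 7 tested Bbs genes were the same on all 3 scales.

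Genes that work with the trains moved in KO against WT as follows, beside 48.1% fallen and 38.0% risen over all genes tested. Of 10 motor genes, 9 were tested and all 9 fell (median log2 change -1.99). The kinesin-2 gene Kif3c, with a mean under 1 FPKM, was not tested and is named after its values were seen, since both KO libraries were above the others, at 1.85 and 1.35 FPKM in KO, 0.304 and 0.334 FPKM in EE_KO and 0.212 and 0.232 FPKM in WT. Tctex1d2, a dynein-2 light chain gene, read 3.17 and 4.39 FPKM in KO, 36.1 and 36.7 FPKM in EE_KO and 52.1 and 45.6 FPKM in WT (log2 change -3.39 ± 0.15 (SE), adjusted p = 3.76e-07). Dync2h1, the dynein-2 heavy chain, read 4.76 and 4.62 FPKM in KO, 28.6 and 30.7 FPKM in EE_KO and 31.5 and 28.5 FPKM in WT (log2 change -2.45 ± 0.11 (SE), adjusted p = 5.08e-07). Of the 7 regulators and adaptors, 4 fell and 2 rose, shares of 57.1% and 28.6% that lay near those of all genes. Mak, a kinase that shortens cilia, read 0.938 and 1.14 FPKM in KO against 22.5 and 22.3 FPKM in WT (log2 change -3.52 ± 0.12 (SE), adjusted p = 1.37e-07), and Cdk20 had a log2 change of -2.13 (adjusted p = 2.56e-06).

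The transition zone, the gate at the base of the cilium, was mixed, with 13 falls and 2 rises among 18 tested genes (median -0.71). These shares were 72.2% and 11.1%, against 48.1% and 38.0% over all genes tested. Cc2d2a, likewise not tested and named after its values were seen, was also higher in both KO libraries, at 1.41 and 0.896 FPKM in KO, 0.191 and 0.128 FPKM in EE_KO and 0.126 and 0.0291 FPKM in WT. B9d1 read 4.65 and 4.59 FPKM in KO, 50.5 and 49.7 FPKM in EE_KO and 54.8 and 49.3 FPKM in WT (log2 change -3.24 ± 0.11 (SE), adjusted p = 1.14e-07). Of the transcription factors of ciliary and pachytene genes, 5 of 6 tested fell, and Mcidas and Gmnc, at 0.145 FPKM or less in every library, were not tested. Rfx2, needed for sperm tail formation in mice, read 3.66 and 4.42 FPKM in KO, 97.2 and 96.4 FPKM in EE_KO and 96.2 and 88.9 FPKM in WT (log2 change -4.22 ± 0.11 (SE), adjusted p = 6.74e-08), and Rfx4 had a log2 change of -4.14 (adjusted p = 8.44e-08). In EE_KO against WT none of these genes was called.

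**Figure D4:**
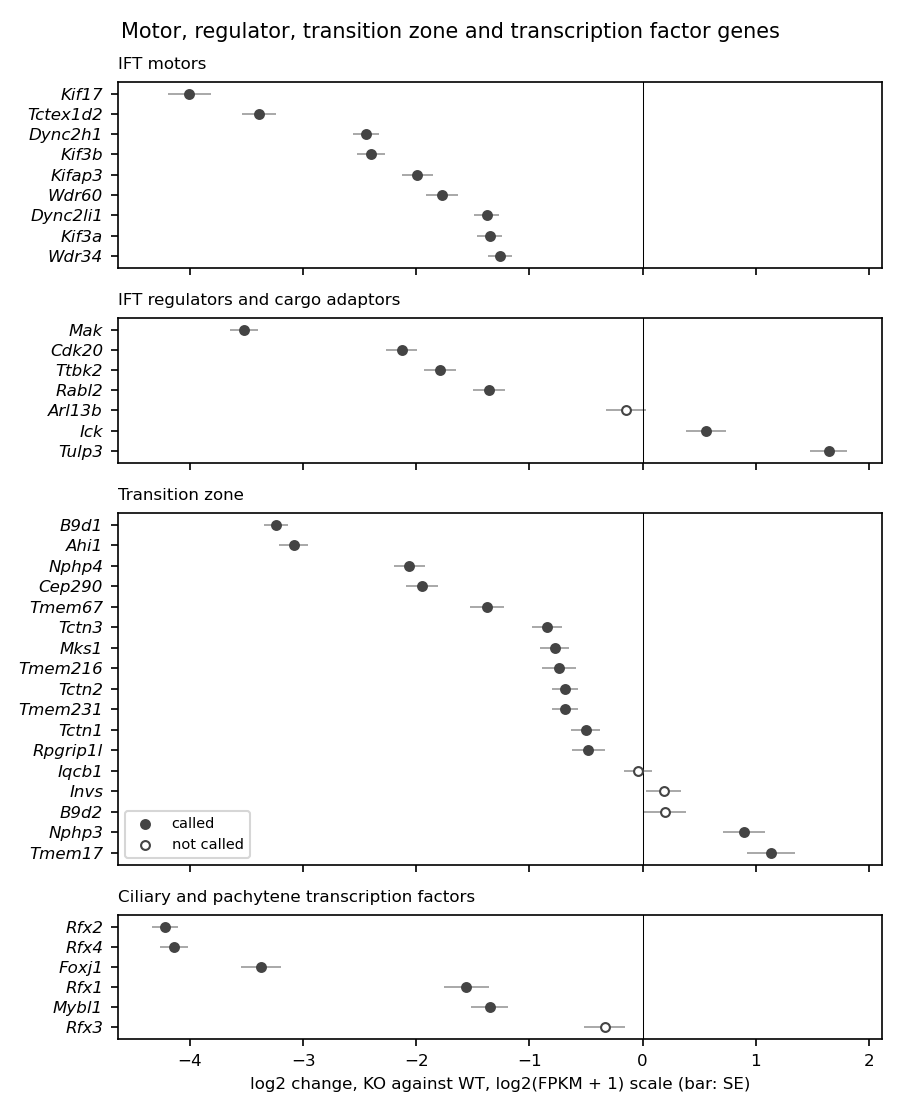
Log2 change with its SE, on the log2(FPKM + 1) scale, of the motor, regulator, transition zone and transcription factor genes reported here, in KO against WT, filled where called. All 9 tested motor genes lie left of 0, while 2 regulators and 2 transition zone genes were called to the right of it.

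RFX factors bind the X-box, a pair of inverted arms, in ciliary promoters, so the RefSeq promoter windows (250 bases before to 50 after each start, GRCm38.p6) were searched on both strands; 53 members had 58 windows. The textbook X-box consensus was searched as a letter pattern with up to 3 bases between its arms. It occurred in 2 of the 58 windows, 3.45%, those of Bbs1 and Ift57, and in 1.53% of all 32851 windows. The half-site GTTGCC occurred in 13 windows of members, 22.4%, and in 12.5% of all. The arms GTNNCC and GGNAAC with any 2 bases between them occurred in 7, 12.1%, and in 1.29% of all. This pair overlaps the half-site and the consensus, was 1 of 9 patterns tried, and was picked after its matches were seen, so its share supports nothing. The matches in these 7 genes lay before the RefSeq start in Bbs7, Ift22, Ift57, Ttc26 and Ttc29 and past it in Bbs1 and Bbs4. All 7 genes fell in KO, to 9.92%, 13.2%, 16.5%, 17.4%, 1.70%, 22.8% and 53.3% of WT in that order. So did 44 of the 59 tested members and 48.1% of all genes tested. A link between the arm pair and the falls was not tested. The sequences of the 5 genes whose matches lie before the RefSeq start are shown as promoter sequence from these windows. They are on the gene's strand, with the arm pair and its spacer in capitals. In the GENCODE M21 annotation, Ttc26 and Ttc29 start further upstream, at chr6:38381469 and chr8:78213297. By that annotation their matches lie inside the gene. In Ift57 and Ttc29 the arms match on the other strand, and of 2 matches in Ift22 the nearer to the start is given. A match is a run of letters, and binding was not measured.
Bbs7 (chr3:36613489-36613518, minus strand): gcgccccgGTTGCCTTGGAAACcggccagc
Ift22 (chr5:136908109-136908138, plus strand): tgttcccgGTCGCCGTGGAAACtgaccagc
Ift57 (chr16:49699199-49699228, plus strand): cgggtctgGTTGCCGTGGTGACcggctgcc
Ttc26 (chr6:38381483-38381512, plus strand): ccggcggcGTTGCCGTGGAAACggagctcg
Ttc29 (chr8:78213293-78213322, plus strand): gcccctctGTTTCCATGGAGACgctttcag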

How the data were processed

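RNA was converted to libraries with a SMARTer mRNA-seq kit, per the labels' protocols, and the deposited files hold FPKM values per Ensembl gene, per the file headers. GRCm38 is named in the submitters' processing notes. No aligner, counter or strand setting is named in the sources used here. Symbols came from GENCODE M21, which held 54495 of 54532 genes. FPKM times exon length gave whole reads for 96.8% to 97.0% of values (tolerance 0.01) and hence the depths.

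Changes were fitted with limma 3.58.1 (R 4.3.3) with a mean-variance trend on log2(FPKM + 1), over genes with mean FPKM of at least 1, leaving out short RNA genes and the lower entry of a repeated symbol, in 1 fit of all 6 libraries without a block. The main fit was run on simulated reads in which a small set of genes changed by known folds. Far more genes were called in these data, so that run cannot vouch for the calls given here. Alternatives changed the pseudocount to 0.1, the filter to none or at least 5, or used TPM, quantile normalization, short RNAs, voom on the recovered reads, a replicate block, 2 groups only, or left out each library. Named genes are all Ift and Bbs members, Traf3ip1, Ttc genes of cilia, and the 5 largest rises and falls of other Ttc genes, with 2 genes of smallest p per other pathway list. 1 gene that this rule picked is not reported here by name. Members and lists were chosen with earlier results of these data known.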

Additional observations from a re-analysis of the deposited data

How the results depend on the processing

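The members called numbered 53 to 56 in KO against WT, apart from 41 of 44 tested at a mean of at least 5 FPKM, and 0 in EE_KO against WT under every alternative. In EE_KO against KO they numbered 52 to 56, apart from 43 of 44 at that filter. Replicate numbers are not stated to pair libraries across groups, and the deviations of same-numbered libraries correlated at 0.0909, -0.0307 and 0.0540 for KO with EE_KO, KO with WT and EE_KO with WT. With the replicate block 54, 55 and 0 members were called.

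Family medians moved by more than their spread between libraries in these settings. That spread is the SD of the median change over all pairs of libraries, 1 from each group, and the pairs share libraries. In KO against WT the Ift median was -2.57 at a pseudocount of 0.1, -2.10 on TPM and after quantile normalization, and -2.60 with voom. The Bbs median was -1.53 at a pseudocount of 0.1, -1.58 at 5 FPKM, -1.06 on TPM and -1.55 with voom. The Ttc median was -0.85 with no filter, -2.76 at 5 FPKM, -0.75 on TPM, -0.83 after quantile normalization and -1.29 with voom. In EE_KO against KO the Ift median was 2.52, 2.09, 2.11 and 2.55 at a pseudocount of 0.1, on TPM, after quantile normalization and with voom. The Bbs median was 1.70 at a pseudocount of 0.1, 1.30 with no filter, 1.68 at 5 FPKM, 1.27 on TPM, 1.36 after quantile normalization and 1.73 with voom. The Ttc median was 1.55, 0.94, 2.61, 0.96 and 1.63 at a pseudocount of 0.1, with no filter, at 5 FPKM, after quantile normalization and with voom. Leaving out 1 library also moved the Ift median in KO against WT (-2.40 without KO replicate 2) and the Ttc median without EE_KO replicate 2. The latter was 1.26 in EE_KO against KO and -0.058 in EE_KO against WT. The filters change which genes are counted, and the cause of the other shifts was not tested. With each library left out, KO against WT medians ran from -2.40 to -2.33 (Ift), -1.47 to -1.19 (Bbs) and -1.19 to -0.96 (Ttc). In EE_KO against KO they ran from 2.24 to 2.40, 1.42 to 1.57 and 1.04 to 1.26, and in EE_KO against WT from -0.12 to 0.04, -0.05 to 0.03 and -0.058 to 0.056, and member counts from 53 to 54, 52 to 54 and 0 to 0.

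Reversed changes were Ift20 (0.32 after quantile normalization) and Ttc27 (0.31 on TPM) in KO against WT, and Ift20 (-0.042 on TPM, -0.17 after quantile normalization) in EE_KO against KO. In KO against WT, Ttc9c (0.71 with all libraries) was 0.59 without WT replicate 2 and 0.43 without KO replicate 1 and lost its call (adjusted p = 0.0723 and 0.101). Ttc1 and Ttc39c lost theirs on TPM and after quantile normalization, and Bbs9 on TPM, while Ttc5 gained one on both. In EE_KO against KO, Ttc38 lost its call without any 1 of the 6 libraries (-0.45 to -0.27), Ift20 without any but EE_KO replicate 1 (0.18 to 0.40), and Ttc5 without any KO or EE_KO library (-0.39 to -0.31). Calls were also lost by Ttc38 at a pseudocount of 0.1 (-0.45), with no filter (-0.36), with voom (-0.47) and with the replicate block (-0.36). The same held for Ift20 with no filter and with 2 groups only (0.35 in both), and Ttc9c with no filter (-0.63). On TPM, Ttc37 gained a call (-0.51). Ttc9c lost its call without EE_KO replicate 1 (-0.57) or KO replicate 1 (-0.35), and Bbs4 without EE_KO replicate 2 (0.43) or KO replicate 2 (0.41), and on TPM (0.17). With 2 libraries a group and 2 to 19848 reads behind a member's value, small changes could be missed. The smallest changes called, those of Ttc5 (-0.35), Ift20 (0.35) and Ttc38 (-0.36) in EE_KO against KO, lost their calls in some settings.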
